A study of Homo sapiens and Mus musculus with 12 samples.

Results

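The mammary keratins described here are 10 genes chosen by symbol: the luminal keratins *KRT7*, *KRT8*, *KRT18* and *KRT19*, the basal or stress keratins *KRT5*, *KRT6A*, *KRT14*, *KRT17*, *KRT80* and *KRT81*, and the mouse genes of the same symbols. They are 10 of the 63677 gene identifiers counted in MDA-MB-231, a human triple-negative breast cancer (TNBC) cell line, and 10 of the 47729 counted in 4T1, a mouse mammary carcinoma cell line. Each line received 1 µM ponatinib, which inhibits several tyrosine kinases, or the solvent DMSO alone for 24 h, and RNA-seq was analysed in 3 libraries per group, 12 in all. Both are established lines grown alone in culture, with no genetic change between the groups. No source used here says whether the libraries of a group came from separate cultures, so p-values measure only the spread between these libraries. Libraries of MDA-MB-231 held 15012884 to 17301760 counts and those of 4T1 held 17800675 to 18951493. In every group library 1 stood apart from the others: by the chi-square of counts per gene between a pair of libraries, pairs with library 1 were at 9.76 and 9.96 against 2.86 for the remaining pair in MDA-MB-231 with DMSO, and at 8.17 and 14.7 against 3.71 with ponatinib. In 4T1 these values were 14.3 and 12.5 against 6.61 with DMSO, and 8.39 and 9.84 against 4.98 with ponatinib. For the 10 members, results without library 1 are given beside those they change. They were not examined for the other named genes or the gene lists.

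Keratins are the intermediate filament proteins of epithelial cells. A filament is built from pairs of an acidic type I keratin and a basic type II keratin, and *KRT8* (type II) with *KRT18* (type I) is the classic pair of simple and luminal epithelium. In the mammary gland, *KRT7*, *KRT8*, *KRT18* and *KRT19* mark luminal cells, whereas *KRT5*, *KRT14* and *KRT17* mark basal cells, and *KRT6A* and *KRT17* are also induced in stressed or wounded epithelium. *KRT81* is a type II keratin best known from hair, and *KRT80* is a type II keratin of differentiating epithelia. In the human genome the type II genes and *KRT18* lie on chromosome 12 and the other type I genes on chromosome 17. In the mouse, chromosomes 15 and 11 hold them in the same way.

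*KRT81* and its neighbour *KRT86*, another hair keratin, share long stretches of sequence, which bears on which gene a read can be assigned to. Of all windows of 100 bases in the *KRT81* transcript of GENCODE v44, 29.4% also occur in a *KRT86* transcript, so the counts of these genes are uncertain to the extent that such reads were split or dropped.

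The epithelial markers of both lines were checked first. MDA-MB-231 libraries held 12974 to 29088 counts of *KRT8* and 600 to 951 of *CLDN4*, a tight junction protein. They held 87 to 167 counts of *EPCAM*, an epithelial adhesion protein, and 4 to 27 of *ESRP1*, an epithelial splicing factor. *CDH1*, which encodes E-cadherin, had 0 or 1 count per library. In 4T1, *Cdh1* was present at 830 ± 57.7 CPM with DMSO (CPM, counts scaled to a library of 1000000, SD, n = 3), whereas *Epcam* was at 2.85 ± 0.0668 CPM, *Cldn4* at 4.86 ± 0.150 CPM and *Esrp1* at 3.54 ± 0.462 CPM. Markers of leukocytes, endothelium, fibroblasts and adipocytes were summed as lists. Their summed levels across all libraries were at most 15.4 CPM, 6.56 CPM, 87.8 CPM and 9.67 CPM in MDA-MB-231, and at most 3.23 CPM, 5.25 CPM, 10.2 CPM and 28.8 CPM in 4T1. The fibroblast list moved with the treatment in MDA-MB-231, from 26.5 to 31.5 CPM with DMSO to 81.5 to 87.8 CPM with ponatinib. Of its 8 genes 2 were tested, and 2 were higher (*COL1A1* and *PDGFRB*). The adipocyte list went from 3.05 to 4.14 CPM to 7.998 to 9.667 CPM there, and of its 5 genes 2 were tested and 2 were higher. In 4T1 the endothelial list went from 3.22 to 5.25 CPM to 1.083 to 1.497 CPM, and of its 6 genes 1 was tested and 1 was lower. The adipocyte list there went from at least 24.5 CPM in each DMSO library to at most 20.1 CPM with ponatinib. Of its 5 genes 1 was tested, and 1 was lower (*Cidec*). The fibroblast list there went from 6.66 to 7.54 CPM to 9.55 to 10.2 CPM. Of its 8 genes 3 were tested, with 1 higher and 2 lower. The leukocyte list in MDA-MB-231 went from 12.3 to 12.9 CPM to 13.7 to 15.4 CPM, and of its 8 genes 2 were tested and 1 was higher. These counts stand beside 27.2% higher and 26.8% lower of all genes tested in MDA-MB-231, and 29.5% higher and 29.4% lower in 4T1. With 1 to 3 genes tested per list, they are a description only. The part of these lists in the keratin changes was not tested. *PTPRC*, *PECAM1* and *ADIPOQ* had no count in any MDA-MB-231 library, and *COL1A2*, *DCN*, *LUM* and *THY1* had 0 to 2 counts in every MDA-MB-231 library. Other genes of these lists had counts in every MDA-MB-231 library. Among them were *ADGRE1* (180 to 252 counts), *KDR* (44 to 98), *LPL* (37 to 131), *COL1A1* (397 to 1405) and *PDGFRB* (3 to 196).

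At baseline both lines expressed mainly luminal keratins, but MDA-MB-231 also expressed *KRT81* and *KRT80*. To compare genes, the level of each was taken as CPM per kilobase of its annotated exons. With DMSO, the MDA-MB-231 order began with *KRT81* at 334 ± 50.4 and *KRT19* at 315 ± 37.4 CPM per kb (SD, n = 3), whose libraries overlapped. *KRT8* at 129 ± 15.3 and *KRT7* at 113 ± 11.8 CPM per kb came next and also overlapped each other. *KRT18* followed at 38.1 ± 5.72, *KRT80* at 13.8 ± 0.213, *KRT14* at 0.627 ± 0.211 and *KRT17* at 0.115 ± 0.00967 CPM per kb, each apart from its neighbours in every library. *KRT5* and *KRT6A* had no count in any of the 6 libraries, which allows up to 0.0625 CPM over the DMSO libraries and 0.0622 CPM over the ponatinib libraries (3 counts of the summed total, counting error only). With the longest transcript as the length, the first 2 places changed: *KRT19* stood at 529 CPM per kb, above *KRT81*, and *KRT8* at 311 CPM per kb, overlapping *KRT81*.

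In 4T1 with DMSO, *Krt18* was the most abundant at 2257 ± 146 CPM per kb, followed by *Krt8* at 1219 ± 101 and *Krt19* at 1099 ± 130 CPM per kb (SD, n = 3). *Krt18* lay above *Krt8* in every library, and *Krt8* and *Krt19* overlapped. The next members were far lower: *Krt14* at 4.54 ± 0.528, *Krt80* at 2.84 ± 0.116 and *Krt7* at 1.63 ± 0.316 CPM per kb. *Krt17* had 1 count in each DMSO library and 0 with ponatinib, *Krt6a* had 0, 1 and 1 counts and then 0, and *Krt5* had a single count, in ponatinib library 3. *Krt81* had no count in any 4T1 library, which allows up to 0.0534 CPM over the DMSO libraries and 0.0544 CPM over the ponatinib libraries. The 10 members together took 0.280% ± 0.0209 of the DMSO counts of MDA-MB-231 and 0.740% ± 0.0545 of those of 4T1 (SD, n = 3).

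**Figure D1:**
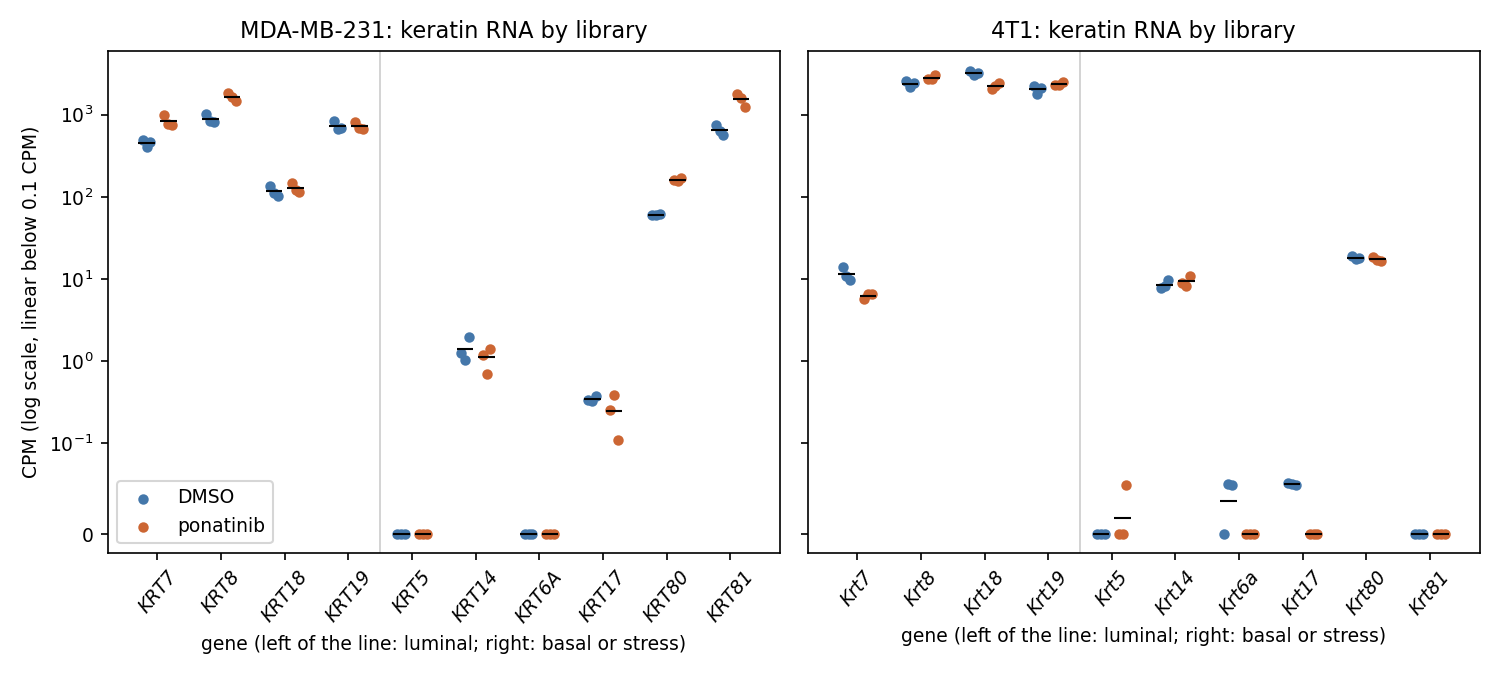
CPM of the 10 keratin genes in each library (points) with group means (bars) for MDA-MB-231 (left) and 4T1 (right), on a log scale that is linear below 0.1 CPM. *KRT7*, *KRT8*, *KRT80* and *KRT81* lay higher in all 3 ponatinib libraries of MDA-MB-231, while *Krt18* and *Krt7* lay lower in all 3 of 4T1.

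In MDA-MB-231, ponatinib raised 4 of the 7 members that passed the filter on low counts, *KRT7*, *KRT8*, *KRT80* and *KRT81*, all of them type II keratins, and lowered 0. The 3 others tested, *KRT14*, *KRT18* and *KRT19*, are type I. Over all 14610 genes tested, 27.2% were called higher and 26.8% lower (edgeR's quasi-likelihood test, Benjamini-Hochberg adjusted p under 0.05), and the groups did not overlap for 60.4% of genes, against 4 of the 7 members. The median log2 fold change of the 7 was 0.88, beside 0.02 over all genes.

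*KRT80* showed the largest fold change of the members in MDA-MB-231. It was at 59.55, 59.95 and 61.32 CPM with DMSO and at 160, 157 and 168 CPM with ponatinib. The groups were far apart compared with the spread within each. The log2 fold change was 1.42 (SE 0.07, adjusted p = 4.87e-08, edgeR), a 2.68-fold higher mean. *KRT80* shared almost no sequence with other genes, with 0% of its 100-base windows found elsewhere.

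*KRT81* was at 751, 624 and 560 CPM with DMSO and at 1805, 1593 and 1253 CPM with ponatinib. All 3 ponatinib libraries lay above all 3 DMSO libraries, by a log2 fold change of 1.27 (SE 0.14, adjusted p = 1.23e-05). *KRT86* rose as well, from 11.3 ± 1.85 to 43.8 ± 7.56 CPM (SD, n = 3), a log2 fold change of 1.96 (SE 0.15, adjusted p = 1.04e-06). *KRT86* held 1.63 to 1.999 counts per 100 *KRT81* counts with DMSO and 2.66 to 2.96 with ponatinib. Because of the sequence they share, the part of *KRT81* reads in the *KRT86* counts was not tested.

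Among the luminal keratins, *KRT8* was at 1009, 839 and 817 CPM with DMSO and at 1832, 1626 and 1449 CPM with ponatinib. The groups did not overlap, with a log2 fold change of 0.88 (SE 0.11, adjusted p = 2.94e-05). *KRT7* moved by nearly the same amount, from 488, 399 and 470 CPM to 985, 760 and 743 CPM, a log2 fold change of 0.88 (SE 0.12, adjusted p = 6.04e-05). An antisense gene, *KRT7-AS*, covers 7.05% of the *KRT7* exon bases on the opposite strand. Its counts were 38, 37 and 34 with DMSO and 136, 95 and 115 with ponatinib. The strand setting of the counting is not given in the sources used here, so reads of this stretch cannot be told apart. *KRT7-AS* was itself called higher (log2 fold change 1.565, adjusted p = 5.29e-05, edgeR), beside 6164 to 15638 counts of *KRT7* per library, and its part in the *KRT7* counts was not tested.

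*KRT18*, the partner of *KRT8*, did not pass the test in MDA-MB-231. It was at 137, 111 and 103 CPM with DMSO and at 147, 120 and 114 CPM with ponatinib, so the groups overlapped, and its log2 fold change was 0.12 (SE 0.12, adjusted p = 0.419). With the replicate number as a block the same change, 0.12, had an SE of 0.04 and an adjusted p of 0.0168 by edgeR. With no block, the size of the change depended on library 1. It was 0.23 without DMSO library 1 (adjusted p = 0.0858, edgeR) and 0.0009 without ponatinib library 1 (adjusted p = 0.995, edgeR). *KRT8* and *KRT18* lie next to each other on opposite strands, and 525 exon bases are shared, which is 17.1% of the *KRT18* exon bases and 7.63% of those of *KRT8*. Of the 100-base windows of the *KRT18* transcript, 18.5% match *KRT8* transcripts. Annotated pseudogenes were assigned few reads: the 51 *KRT8* pseudogenes held 95 to 137 counts per library in all, and the 67 *KRT18* pseudogenes held 6 to 17. Windows of 50 bases also found in other genes made up 39.2% for *KRT8* and 52.8% for *KRT18*. At 100 bases they made up 7.12% and 18.5%. The handling of reads that match several genes is not given in the sources used here, so these few counts do not show how many reads were dropped.

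*KRT19*, a type I keratin that lacks the usual tail domain, was at 836, 677 and 694 CPM with DMSO and at 808, 693 and 664 CPM with ponatinib. The groups overlapped, and the log2 fold change was -0.03 (SE 0.10, adjusted p = 0.842), with a sign that differed between processing settings and turned to 0.062 without DMSO library 1. Without library 1 of either group, the calls of *KRT7*, *KRT8*, *KRT80* and *KRT81* held, with log2 fold changes of 0.73 to 1.43. *KRT14*, the type I partner of *KRT5* in basal cells, had 19, 16 and 31 counts with DMSO and 19, 11 and 26 with ponatinib. A change of *KRT14* was not detectable at this depth (log2 fold change -0.34, SE 0.36, adjusted p = 0.446). *KRT17* had 2 to 6 counts per library and was not tested.

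**Figure D2:**
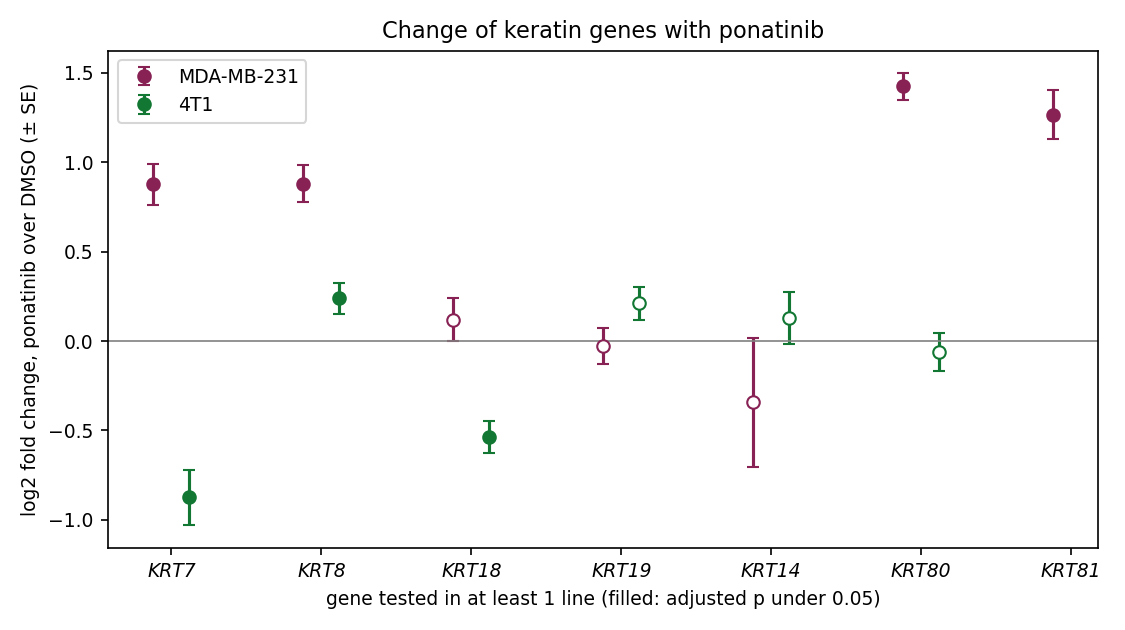
Log2 fold change of each tested keratin gene, ponatinib over DMSO, in MDA-MB-231 and 4T1 (points, with SE bars). Filled points had an adjusted p under 0.05. The 4 filled MDA-MB-231 points lie between 0.88 and 1.42, and the 4T1 points lie between -0.87 and 0.24.

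In 4T1, ponatinib lowered *Krt7* and *Krt18* and raised *Krt8*, 3 of the 6 members that passed the filter. Over all 13286 genes tested, 29.4% were called lower and 29.5% higher, and the groups did not overlap for 63.4%, against 4 of the 6 members. The median log2 fold change of the 6 was 0.03, beside -0.00014 over all genes.

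*Krt18*, the most abundant member, was at 3445, 3026 and 3257 CPM with DMSO and at 2033, 2235 and 2438 CPM with ponatinib. Every ponatinib library lay below every DMSO library. The log2 fold change was -0.54 (SE 0.09, adjusted p = 0.000125), so the mean with ponatinib was 0.689 times that with DMSO. *Krt8* moved the other way, from 2565, 2174 and 2420 CPM to 2716, 2692 and 3039 CPM. Its groups were close but did not overlap, with a log2 fold change of 0.24 (SE 0.09, adjusted p = 0.0298). The call for *Krt8* rested on single libraries: the adjusted p was 0.101 without DMSO library 2, 0.0618 without DMSO library 3 and 0.140 without ponatinib library 3. Of the 100-base windows of the *Krt8* transcript, 16.9% also occur in the pseudogene *Krt8-ps*, which held 25 to 46 counts per library. Its part in the *Krt8* counts was not tested.

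*Krt7* was low in 4T1, at 14.0, 10.9 and 9.67 CPM with DMSO and 5.77, 6.50 and 6.55 CPM with ponatinib. The groups did not overlap, and the log2 fold change was -0.87 (SE 0.16, adjusted p = 0.000229). *Krt19* was at 2245, 1773 and 2097 CPM with DMSO and at 2295, 2293 and 2492 CPM with ponatinib. All ponatinib values were above all DMSO values, but the change did not pass the test (log2 fold change 0.21, SE 0.09, adjusted p = 0.0628). With the replicate number as a block it did, at 0.22 with an adjusted p of 0.0104 by edgeR, and across the 12 alternatives run the adjusted p ranged from 0.00529 to 0.234. Without DMSO library 1 it also passed, at 0.28 with an adjusted p of 0.00866. A gene on the opposite strand, *Gm73150*, covers 17.7% of the *Krt19* exon bases, and its part in the *Krt19* counts was not tested. Without library 1 of either group, *Krt7*, *Krt18* and *Krt8* kept their calls.

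The other 2 tested members in 4T1 gave no call. *Krt80* was at 18.98, 17.55 and 17.92 CPM with DMSO and at 18.6, 17.2 and 16.4 CPM with ponatinib, which overlapped (log2 fold change -0.06, SE 0.11, adjusted p = 0.644). Under scaling by total counts its sign turned, to 0.06. *Krt14* was at 7.71, 8.22 and 9.62 CPM with DMSO and at 8.94, 8.26 and 10.8 CPM with ponatinib (log2 fold change 0.13, SE 0.15, adjusted p = 0.467).

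The change with ponatinib was compared between the lines as the interaction of line and treatment, over 12488 genes with the same symbol in both species. This fit was scaled over all 12 libraries at once, so a fitted difference is not the subtraction of the fold changes found within each line. It differed for 4 members, *KRT7*, *KRT80*, *KRT18* and *KRT8*, all with a lower change in 4T1, a direction called for 21.9% of all genes, and for 0 members with a higher change in 4T1, called for 20.0%. *KRT7* had the largest difference, with log2 fold changes of 0.88 (MDA-MB-231) and -0.87 (4T1), a fitted difference of -1.82 (SE 0.20, adjusted p = 4.69e-07). For *KRT80* the difference was -1.56 (SE 0.11, adjusted p = 3.63e-09). For *KRT18* it was -0.73 (SE 0.16, adjusted p = 0.00114) and for *KRT8* it was -0.71 (SE 0.15, adjusted p = 0.000695). *KRT19* and *KRT14* differed by 0.17 (SE 0.15) and 0.40 (SE 0.36), neither past the threshold. With the scaling factors found within each line, an alternative added after seeing the data, the differences were -1.77 for *KRT7*, -1.51 for *KRT80*, -0.68 for *KRT18* and -0.66 for *KRT8*. *KRT81* had no estimate, since 4T1 had no count of it.

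The make-up of the keratin RNA was described for each library from the CPM per kb, with no test. The luminal keratins made up 62.5%, 61.8% and 65.0% of the summed level in MDA-MB-231 with DMSO and 48.2%, 46.9% and 51.0% with ponatinib. All 3 ponatinib values lay below all 3 DMSO values. This is a lower share and not a lower level. The summed CPM of the luminal keratins went from 2026 to 2470 with DMSO to 2971 to 3772 with ponatinib. In the same total *KRT81* went from 334 ± 50.4 to 804 ± 144 CPM per kb (SD, n = 3). In 4T1 the luminal share was between 99.8% and 99.9% in all 6 libraries. The type II share was 62.5%, 63.1% and 62.0% in MDA-MB-231 with DMSO and 79.0%, 79.3% and 77.1% with ponatinib. In 4T1 it was 26.7% ± 0.0271 with DMSO and 33.7% ± 0.676 with ponatinib (SD, n = 3). Nearly all of that was *Krt8*, whose own share was 26.6% and 33.6%, while *Krt7*, also type II, was called lower there.

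The ratio of *KRT8* to *KRT18* levels was higher in the ponatinib libraries of both lines. It was 3.29, 3.37 and 3.53 in MDA-MB-231 with DMSO and 5.56, 6.03 and 5.67 with ponatinib. In 4T1 it was 0.546, 0.527 and 0.545 with DMSO and 0.981, 0.884 and 0.915 with ponatinib. The groups did not overlap in either line. With the longest transcript as the length the mean ratio went from 5.56 to 9.41 in MDA-MB-231, and with no length scaling it went from 7.62 to 12.9 there and from 0.735 to 1.26 in 4T1. In MDA-MB-231 it was *KRT8* that passed the test and *KRT18* that did not, and in 4T1 *Krt18* had the larger change of the pair. The summed level of the 10 members went from 944 ± 113 to 1637 ± 236 CPM per kb in MDA-MB-231, and it went from 4583 ± 376 to 4275 ± 291 CPM per kb in 4T1 (SD, n = 3). The 4T1 sum has no clear direction: with scaling by total counts it went from 4399 ± 314 to 4451 ± 292 CPM per kb, and the members' share of all 4T1 counts went from 0.740% ± 0.0545 to 0.775% ± 0.0492 (SD, n = 3). In these bulk libraries, more cells with a keratin and more of its RNA per cell cannot be told apart.

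**Figure D3:**
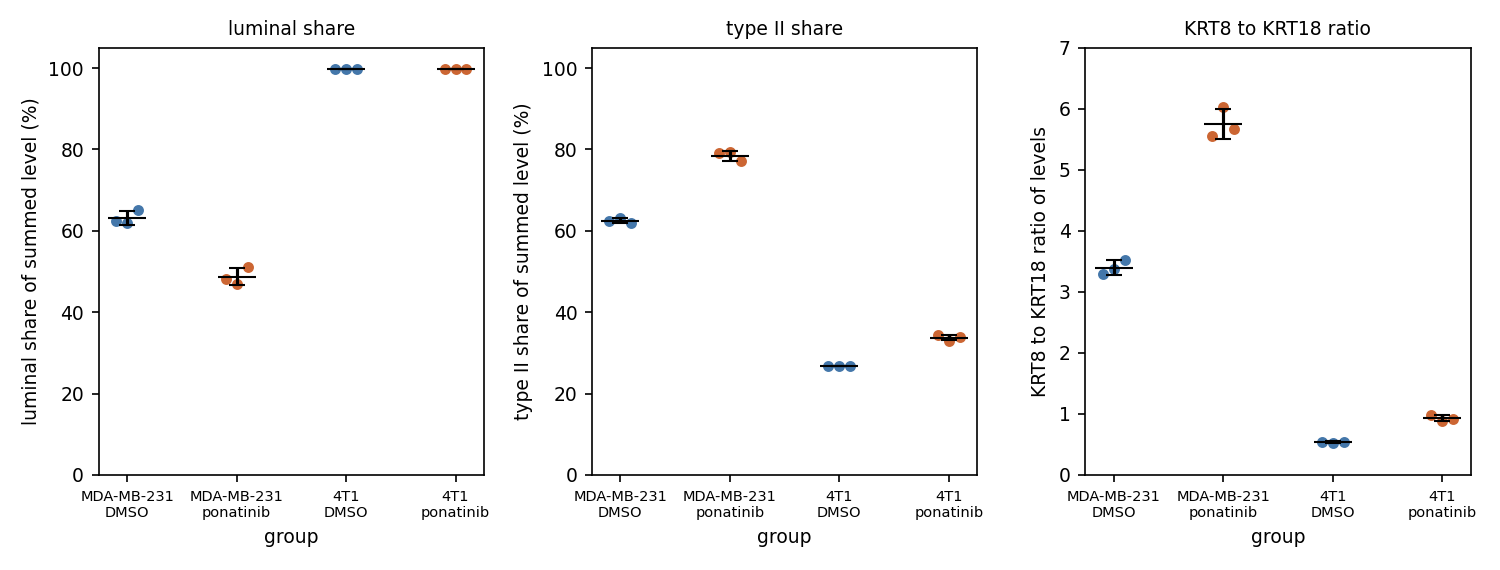
Luminal share, type II share and *KRT8* to *KRT18* ratio of the summed keratin level (CPM per kb) in each library (points), with mean and SD (bars). The type II share and the ratio were higher with ponatinib in both lines. The luminal share was lower with ponatinib in MDA-MB-231, where the summed CPM of the luminal keratins was higher.

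Of the 45 other human keratin genes, 25 had no count, 6 were tested, 1 was higher (*KRT86*, above) and 2 were lower, in a line where 27.2% of all genes tested were higher and 26.8% lower. *KRT34*, a hair keratin of type I, went from 5.25 ± 1.04 to 2.25 ± 0.357 CPM (log2 fold change -1.21, SE 0.22, adjusted p = 0.000663). *KRT15*, a type I keratin of basal cells, went from 7.61 ± 0.886 to 4.49 ± 0.978 CPM (-0.76, SE 0.19, adjusted p = 0.00468). *KRT10*, the type I keratin of the upper epidermis, varied widely, from 768 to 1399 counts with DMSO and 499 to 1191 with ponatinib, and gave no call (log2 fold change -0.60, adjusted p = 0.112), but was lower with the replicate number as a block (-0.65, adjusted p = 0.00263). *KRT16*, a stress keratin, was at 1.20 ± 0.682 and 1.23 ± 0.240 CPM.

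Of the 44 other mouse keratin genes, 19 had no count, 10 were tested, 1 was higher and 1 was lower, beside 29.5% and 29.4% of all genes tested. *Krt23*, a type I keratin, fell from 168 ± 10.8 to 101 ± 3.31 CPM (log2 fold change -0.73, SE 0.07, adjusted p = 1.14e-06). *Krt20*, a type I keratin of the gut and bladder lining, rose from 9.62 ± 0.813 to 12.1 ± 0.957 CPM (0.32, SE 0.13, adjusted p = 0.0394). *Krt10*, *Krt79* and *Krt36* gave no call, with log2 fold changes of 0.24, -0.20 and -0.63.

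**Figure D4:**
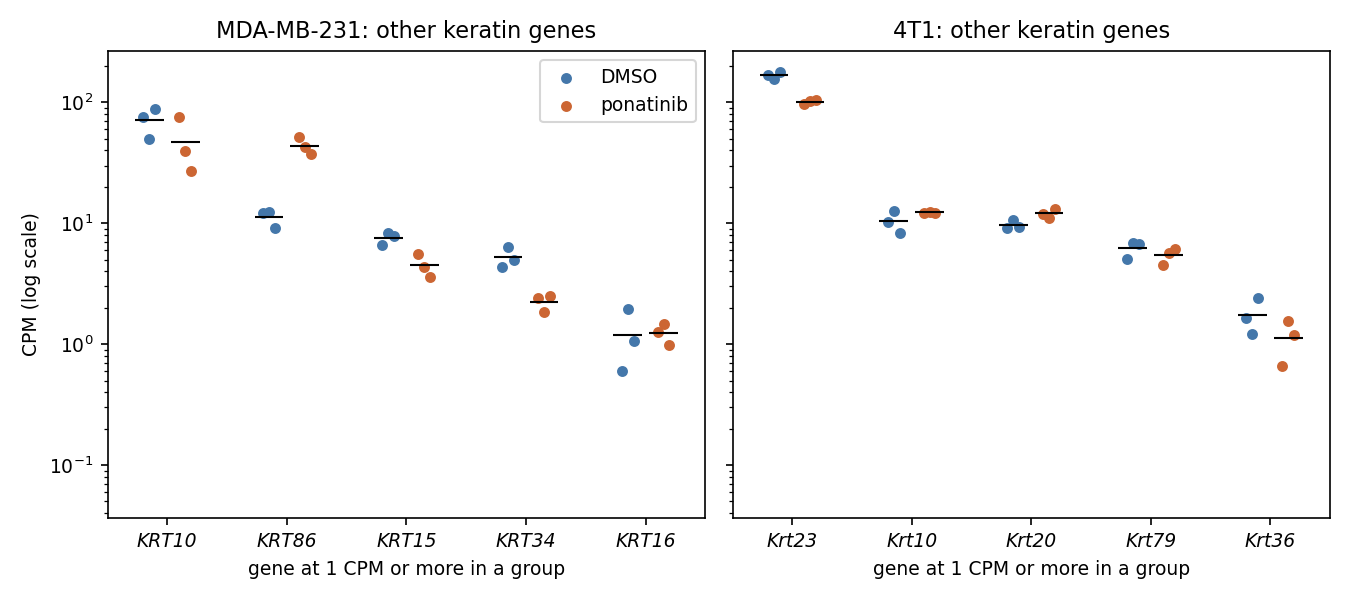
CPM (log scale) of the other keratin genes at 1 CPM or more in a group, in each library (points) with group means (bars). *KRT86* lay higher and *KRT34* and *KRT15* lower with ponatinib in MDA-MB-231, and *Krt23* lay lower in 4T1.

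Keratin filaments end at desmosomes, which join cells, and at hemidesmosomes, which anchor cells to the basement membrane. The counts of this and the next gene lists stand beside 27.2% higher and 26.8% lower of all genes tested in the human line, and 29.5% higher and 29.4% lower in the mouse line. Of 20 genes on the desmosome and linker list in MDA-MB-231, 13 were tested, 4 were higher and 3 lower, with a median log2 fold change of 0.07. With the replicate block 5 were higher and 4 lower. *JUP*, which encodes plakoglobin, rose from 28.0 ± 3.96 to 131 ± 4.31 CPM (log2 fold change 2.23), and *PKP3*, a desmosomal plaque protein, rose from 58.7 ± 9.41 to 111 ± 19.2 CPM (0.92). *VIM*, the mesenchymal filament protein vimentin, fell from 1287 ± 110 to 816 ± 110 CPM (-0.66). It is not a desmosome gene, but the list holds it in both lines and it counts among the 3 lower here. In 4T1, 15 of the 18 listed genes found were tested, 5 were higher and 2 lower, with a median of 0.12. *Jup* rose there too, from 67.7 ± 8.08 to 116 ± 9.53 CPM (0.78), while *Dst*, which encodes the linker dystonin, fell from 971 ± 82.4 to 618 ± 70.7 CPM (-0.65).

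Of 7 hemidesmosome genes, 2 were higher and 4 lower of 7 tested in MDA-MB-231 (median -0.71, 5 lower with the replicate block). In 4T1, 2 were higher and 4 lower of 6 tested (median -0.53). *ITGB4* and *ITGA6* encode the partners of one integrin and moved in opposite directions in both lines. *ITGB4* rose from 22.5 ± 0.860 to 89.8 ± 3.86 CPM (log2 fold change 2.0) in the human line, and *Itgb4* from 20.03 ± 2.23 to 51.9 ± 2.21 CPM in 4T1 (1.37). *ITGA6* fell from 166 ± 20.1 to 71.3 ± 7.17 CPM (-1.22), and *Itga6* from 509 ± 39.7 to 252 ± 18.7 CPM (-1.02). *COL17A1*, a transmembrane collagen, fell from 13.8 ± 0.872 to 1.83 ± 0.173 CPM (-2.91) in the human line.

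The remaining epithelial lists differed between the lines in their counts, and this difference was not tested. Of the luminal and epithelial markers, most but not all of them surface proteins, 7 of 10 tested were higher and 0 were lower in MDA-MB-231 (median 0.86). In 4T1, 2 were higher and 2 lower of 10 (median 0.16). In MDA-MB-231 *EPCAM* (log2 fold change 0.41, adjusted p = 0.0328), *CLDN4* (0.46, adjusted p = 0.000992) and *ESRP1* (1.56, adjusted p = 0.0056) were among the higher. In 4T1 the 2 lower were *Cldn4*, which fell from 4.86 ± 0.150 to 1.83 ± 0.540 CPM (-1.41, adjusted p = 0.000104), and *Esrp1*, which fell from 3.54 ± 0.462 to 1.29 ± 0.407 CPM (-1.45, adjusted p = 0.000311). *Muc1*, a mucin, rose from 7.39 ± 1.11 to 19.3 ± 3.25 CPM in 4T1 (log2 fold change 1.38). Of the epithelial transcription factors, 3 were higher and 4 lower of 11 tested in MDA-MB-231 (median 0.16; 5 higher with the replicate block), and 3 were higher and 8 lower of 13 in 4T1 (median -0.60). *ELF3*, an ETS factor of epithelia, was at 0.0646 ± 0.00171 CPM with DMSO, below the level of 3 counts, and 12.5 ± 1.28 CPM with ponatinib in MDA-MB-231, and *Elf3* rose from 36.5 ± 0.541 to 58.1 ± 0.906 CPM in 4T1 (0.67). *SOX9* fell from 57.9 ± 3.33 to 29.4 ± 4.70 CPM (-0.97), and *Sox9* from 187 ± 13.5 to 40.3 ± 2.34 CPM (-2.22).

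Of the myoepithelial markers, 5 were higher and 2 lower of 8 tested in MDA-MB-231 (median 0.95), and 1 was higher and 1 lower of 6 in 4T1 (median -0.04). Of the cornification and squamous stress genes, 2 were higher and 1 lower of 4 tested in MDA-MB-231 (median 0.58), and 0 were higher and 1 lower of 3 in 4T1 (median -0.55). *TGM1*, a transglutaminase of the cornified envelope, rose from 2.73 ± 0.104 to 10.5 ± 0.409 CPM (log2 fold change 1.94) in the human line. *SFN*, far more abundant, fell there from 609 ± 111 to 410 ± 56.3 CPM (-0.57). The summed level of this list fell there as well, from 550 to 744 CPM with DMSO to 379 to 489 CPM with ponatinib. *Sprr1a*, a cornified envelope protein, fell from 620 ± 101 to 76.8 ± 1.68 CPM in 4T1 (-3.01).

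The genes whose pattern was most like that of the member with the largest called change were found by Pearson's r of log2(CPM + 0.1) over the 6 libraries of a line. For *KRT80* in MDA-MB-231, compared with 9603 genes, they were *TMEM192* (r = 0.9999), *ELF3* (0.9997) and *ITGB4* (0.9995). *KRT8*, *KRT81* and *KRT7* had r of 0.945, 0.942 and 0.936 with *KRT80*, *KRT18* had 0.321 and *KRT19* had -0.121. For *Krt7* in 4T1, compared with 9465 genes, they were *Spdl1* (0.993), *Depdc1b* (0.991) and *Crlf2* (0.991). Their log2 fold changes were -0.16, -0.36 and -0.64. *Krt18* had r of 0.950 with *Krt7*, *Krt80* had 0.463, *Krt19* had -0.535 and *Krt8* had -0.637. The points share 2 treatment groups, so a gene that differs clearly between the groups tends to a high r in either case, and these values are a description.

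Promoter sequences of RefSeq (GRCh38.p14, a window around each gene's start) were matched for 2 of the 10 human members, *KRT5* and *KRT8*. The *KRT8* window was at chr12:52926420-52926719 (minus strand). Its start lies 21393 bases upstream of that of the canonical *KRT8* transcript of GENCODE v44, so the window does not cover the start of that transcript. Neither window held the AP-1 motif TGANTCA on either strand, which was found in 7.71% of the 35116 promoters. The GC box motif GGGCGG was absent from both as well and was found in 45.0% of promoters. The same held for the TATA box motif TATAAA, found in 11.5%.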

How the data were processed

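RNA-seq of 12 libraries was used. Per the paper's methods, the authors dropped adapter and poly-N sequence, mapped reads with HISAT2 (hg38 for the human line, GRCm39 for the mouse line) and used HTSeq for counting. What they deposited are raw counts per gene. Tool versions, annotation release and strand setting are not given in the sources used here. Gene identifiers were matched to GENCODE v44 or vM39 (99.3% and 99.8% of counts).

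Each line was fitted on its own with edgeR 4.0.16 in R 4.3.3, using filterByExpr, TMM factors and the quasi-likelihood test. P-values were adjusted over all genes tested by the Benjamini-Hochberg method. The difference between lines was an interaction term in 1 fit of all 12 libraries. CPM used TMM-scaled totals, and levels between genes were divided by the union of exons. The steps were tested on simulated data. Alternatives were DESeq2 1.42.0, other scalings, filters, a replicate block and leaving out each library. Same-numbered libraries deviated together (r = 0.345, 0.111 and 0.133 in MDA-MB-231, 0.213, 0.119 and 0.115 in 4T1), so the numbers were taken to pair them by the rule that every same-number r exceeds 0.1, on these values alone. Some differently numbered libraries correlated as well, up to 0.163 (MDA-MB-231 DMSO 2 with ponatinib 3) and 0.119 (4T1 DMSO 3 with ponatinib 2). These are no lower than the same-number values of libraries 2 and 3 in each line, so the pairing of those libraries is uncertain. The main fits, their calls and the shares over all genes used no pairing, and the block was only an alternative.

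The members and gene lists were chosen with earlier results of these data known. Named genes were the members, other keratins at 1 CPM or more, up to 2 rises and 2 falls per list (at least 10 CPM, no overlap, some left out here) and the 3 genes most like the leading member. Some items are not reported here.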

Additional observations from a re-analysis of the deposited data

Results flagged for a closer look

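The change with ponatinib differed between the lines for 4 members by the interaction of line and treatment (edgeR, adjusted p under 0.05). A negative difference is a lower change in 4T1, in a fit scaled over all 12 libraries. The difference was -1.82 for *KRT7*, which rose in MDA-MB-231 and fell in 4T1, and -1.56 for *KRT80*, which rose in MDA-MB-231 and gave no call in 4T1. It was -0.73 for *KRT18* and -0.71 for *KRT8*. Baseline levels also differed: with DMSO, *KRT7* was at 452 CPM in MDA-MB-231 and *Krt7* at 11.5 CPM in 4T1. Each line is 1 species, so line and species cannot be told apart.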

How the results depend on the processing

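The 4 members called higher and 0 called lower in MDA-MB-231, the 2 called lower in 4T1 and the 4 that differed between the lines held under the alternatives run, except that the replicate block added *KRT18* in MDA-MB-231 (log2 fold change 0.12, adjusted p = 0.0168), for 5 higher. The count of members called higher in 4T1 was the least stable: it was 1, but 2 under DESeq2, total counts, no filter, 10 counts in every library and the replicate block, where *Krt19* was added (0.22 under the block, adjusted p = 0.0104), and 0 to 2 when a library was left out. Among the members and the other named genes refitted with the block, the pairing changed 1 further call, that of *KRT10* in MDA-MB-231 (-0.65, adjusted p = 0.00263 by edgeR). Of the gene lists other than keratins, it moved counts in MDA-MB-231 only. There the epithelial transcription factors called higher went from 3 to 5. Desmosome and linker genes went from 4 higher and 3 lower to 5 and 4, and hemidesmosome genes from 4 lower to 5. Over all genes tested in MDA-MB-231 the block gave 4802 higher and 4873 lower (3975 and 3918 without it), 4310 and 4310 in 4T1 (3925 and 3909), and 3113 and 3366 between the lines (2498 and 2736). *KRT19* in MDA-MB-231 turned to 0.069 under total counts and 0.0025 with 10 counts in every library, and lay between -0.12 and 0.062 with a library left out, turning sign without DMSO library 1, ponatinib library 2 or ponatinib library 3. *Krt80* in 4T1 turned to 0.055 under total counts. With that scaling the median log2 fold change was 0.11 (MDA-MB-231) and 0.12 (4T1), and it moved the split of calls to 4641 higher against 3097 lower for MDA-MB-231 (3975 and 3918 with TMM), to 4854 higher and 2935 lower in 4T1 (3925 and 3909 with TMM) and to 2998 and 2168 between the lines (2498 and 2736). The luminal share depended on length: with the longest transcript it was 77.0% and 66.4% in MDA-MB-231 (DMSO, ponatinib) and 99.8% and 99.8% in 4T1, and with no length scaling 75.7% and 66.0%, and 99.7% and 99.6%. In 4T1 the cause of the moved calls was not tested. Members with few counts (*KRT5*, *KRT6A*, *KRT17*) could not be tested at this depth. The interaction with TMM within each line, chosen after seeing the data, gave 4 members as well.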
